A study of Mus musculus with 6 samples.

Results

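Lipid-associated macrophages are macrophages that gather around dying, fat-laden cells, take up lipid and express a shared set of surface receptors, tetraspanins and lysosomal genes. In fatty liver they are described in mouse and human as cells, many of them derived from blood monocytes, that lie near steatotic and fibrotic areas. TREM2 is the receptor the state is best known for: it binds lipids and lipoproteins and signals through the adaptor TYROBP (DAP12) and the kinase SYK. The 10 genes described here (Trem2, Gpnmb, Cd9, Cd63, Cd68, Lgals3, Itgax, Fabp5, Clec7a and Ms4a7) were chosen by symbol as commonly used markers of that state. That choice was made with earlier results of these data known. All 10 had a row among the 24421 gene symbols of the count table, none had a count of 0 in any library, and all 10 passed the low-count filter that left 12945 genes for testing.

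RNA was sequenced from 3 liver samples of Sesn3 KO mice and 3 of wild-type (WT) mice, all from male C57BL/6 animals aged 4 months. The labels do not say whether each sample, called a liver from here on, is a separate animal. Both genotypes had eaten for 4 weeks a diet with 20% of its energy from protein, 40% from fat and 40% from carbohydrate, with cholesterol (1.25%) and sodium cholate (0.5%) added, so no comparison with an ordinary diet is made. Sesn3 encodes sestrin 3, a stress-inducible regulator of mTORC1 and AMPK signalling; how the knockout was made, and whether it covered all cells, is not given in the sources used here. Libraries held between 18882220 and 24098512 counts. Sesn3 was at 0.715 ± 0.0398 CPM in KO livers against 10.3 ± 1.31 CPM in WT livers (SD, n = 3 each), and no library went against its genotype label. CPM, the unit used here, is the count of a gene relative to the size of its library, scaled between libraries by TMM factors. Genes that mark hepatocytes (albumin, transferrin, apolipoproteins and others) summed to between 162344 and 189730 CPM in KO livers and between 144906 and 204584 CPM in WT livers. The pan-macrophage genes Csf1r and Adgre1 were present in every library. The tissue is whole liver, in which more cells of a type and more RNA per cell cannot be told apart, and every member is also made by cells other than lipid-associated macrophages.

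The stretch upstream of the transcription start is shown for the 3 members that passed the test and for Gpnmb and Cd68, which passed with another tool or without a WT library only. These are 250 bases before the start annotated by RefSeq (GRCm38.p6, the assembly called mm10), written 5′ to 3′ on the strand of the gene: Trem2 chr17:48346151-48346400 (+), Cd63 chr10:128909095-128909344 (+), Cd9 chr6:125494761-125495010 (-), Gpnmb chr6:49036268-49036517 (+) and Cd68 chr11:69666171-69666420 (-). The gene positions given below are those of GENCODE, whose starts can differ. Against these, the Cd63 window lies inside the gene and the Cd9 window overlaps the start of Cd9. Capitals mark matches, on either strand, to 4 sets of letters. TGANTCA is a loose form of the AP-1 element, with any base at its centre. GAGGAA is a core of the element of PU.1, the macrophage master regulator. CACGTG is the CLEAR E-box of lysosomal genes, and CATGTG is a core of the M-box of MITF.
Trem2: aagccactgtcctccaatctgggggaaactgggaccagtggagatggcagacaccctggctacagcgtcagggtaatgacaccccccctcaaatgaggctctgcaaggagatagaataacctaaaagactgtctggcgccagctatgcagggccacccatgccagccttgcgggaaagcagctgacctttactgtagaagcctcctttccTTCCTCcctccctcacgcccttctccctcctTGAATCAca
Cd63: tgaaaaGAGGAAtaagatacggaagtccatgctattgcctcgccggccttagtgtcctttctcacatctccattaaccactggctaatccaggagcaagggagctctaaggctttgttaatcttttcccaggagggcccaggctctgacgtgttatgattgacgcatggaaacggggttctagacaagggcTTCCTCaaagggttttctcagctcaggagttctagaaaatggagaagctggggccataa
Cd9: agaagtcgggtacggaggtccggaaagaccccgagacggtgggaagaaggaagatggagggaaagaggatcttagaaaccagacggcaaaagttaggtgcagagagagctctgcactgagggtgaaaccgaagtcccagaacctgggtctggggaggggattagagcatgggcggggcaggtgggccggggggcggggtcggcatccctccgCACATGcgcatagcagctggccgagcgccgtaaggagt
Gpnmb: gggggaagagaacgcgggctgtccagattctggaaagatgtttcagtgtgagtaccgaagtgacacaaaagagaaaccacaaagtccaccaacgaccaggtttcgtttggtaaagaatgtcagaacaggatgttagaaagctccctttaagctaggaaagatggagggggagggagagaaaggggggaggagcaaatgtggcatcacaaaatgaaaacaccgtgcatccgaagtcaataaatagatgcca
Cd68: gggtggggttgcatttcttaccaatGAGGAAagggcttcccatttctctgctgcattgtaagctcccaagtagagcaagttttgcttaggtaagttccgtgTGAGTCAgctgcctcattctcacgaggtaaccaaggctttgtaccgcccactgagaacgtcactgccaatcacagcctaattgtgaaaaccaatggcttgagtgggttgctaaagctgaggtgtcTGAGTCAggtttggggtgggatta

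A promoter was found in the RefSeq table for 9 of the 10 members (Fabp5 had no entry). TGANTCA stood in a promoter of 4 of the 9, which were Trem2, Cd68, Itgax and Ms4a7, while 6.36% of 20788 promoter windows of the same length from genes in the count table held it. In Cd68 it occurred at 2 places, beginning 149 and 24 bases before the start. The centre base was G in Cd68 and Itgax, A in Trem2 and T in Ms4a7. GAGGAA stood in 4 of the 9 (Trem2, Cd63, Cd68 and Clec7a; 22.6% of all windows) and CATGTG in 1, Cd9 (9.95% of all windows). CACGTG was in none of them (6.81% of all windows). The Gpnmb window held none of the 4. The motifs do not overlap each other in the windows shown, some genes have several windows, and the letters were chosen after these sequences had been seen, so the counts describe the windows and test nothing.

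KO livers were set against WT livers to see whether loss of Sesn3 goes with a different level of these markers on this diet. Trem2, Cd63 and Cd9 rose in KO livers, by 6.17-, 4.16- and 2.03-fold. Gpnmb showed the largest difference of the 10, 7.67-fold higher in KO livers, with an adjusted p above the threshold and WT livers that ranged over 19.04-fold. The remaining 6 members had positive fold changes between 1.33 and 1.97 that did not pass. So 3 of 10 members rose and none fell at an edgeR adjusted p under 0.05, against 3.36% of all 12945 tested genes that were higher, 3.58% that were lower and 6.94% in either direction. At an unadjusted edgeR p under 0.05, 5 members were higher and 0 lower, against 12.5% and 13.3% of all tested genes. DESeq2 called 5 members higher and 0 lower (7.11% and 8.2% of all genes), and limma-voom 4 higher and 0 lower (3.28% and 3.42% of all genes). The median log2 fold change was 0.95 over the members and 0.0027 over all tested genes. In 6 members (Trem2, Gpnmb, Cd9, Cd63, Cd68 and Lgals3) every KO library lay above every WT library, which was so for 16.9% of the tested genes. The members were chosen with earlier results of these data known, so these comparisons with all genes describe the list and test nothing.

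The count of 3 depended on single libraries. It was 0 without KO replicate 1 or KO replicate 2, 1 (Cd9) without KO replicate 3 or WT replicate 3, 4 without WT replicate 2 and 7 without WT replicate 1. Over all genes of each fit, 1.10%, 0.367% and 0.990% were called higher when KO replicate 1, 2 or 3 was left out, 1.00% without WT replicate 3, 3.07% without WT replicate 2 and 3.84% without WT replicate 1. No member changed direction in any of these fits.

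**Figure D1:**
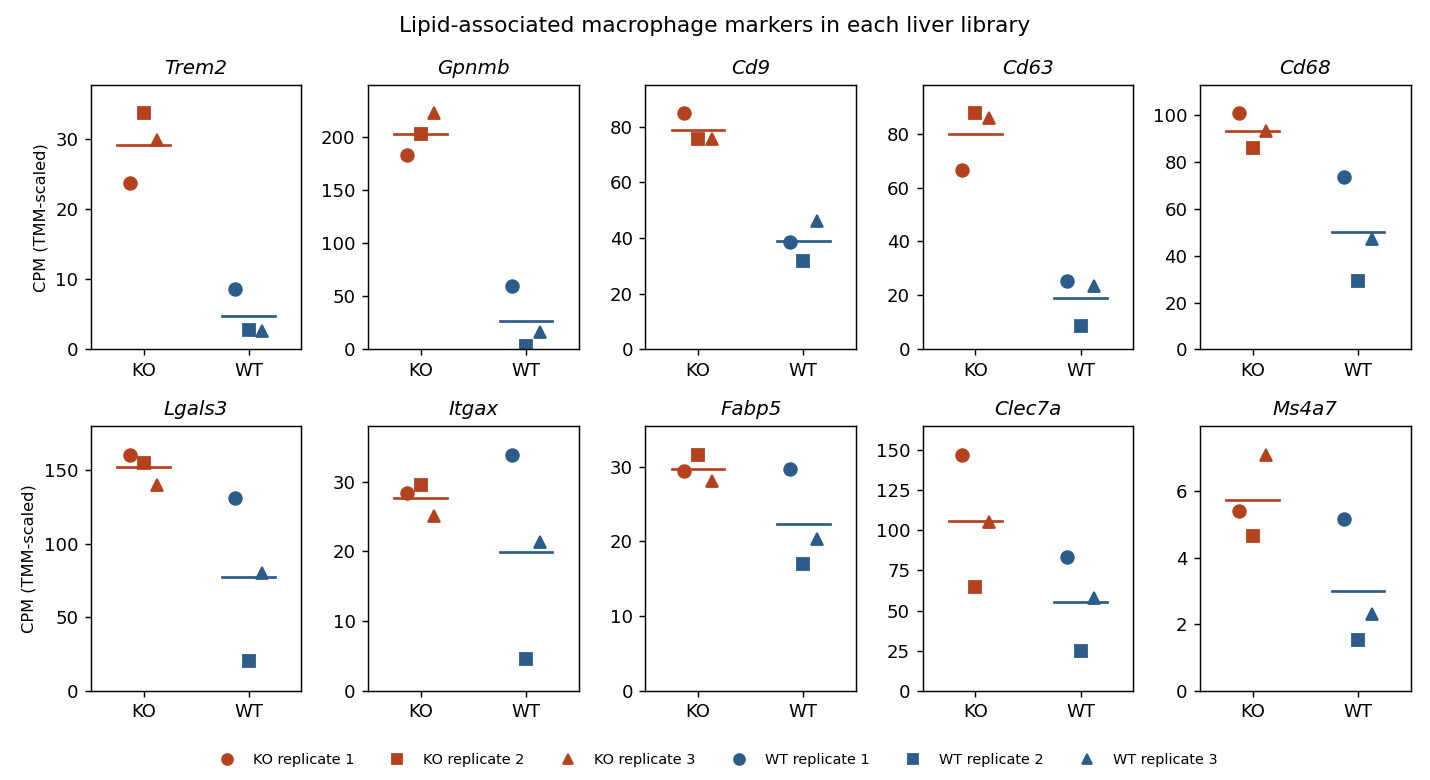
CPM (scaled by TMM factors, linear axes from 0) of the 10 markers in each of the 3 KO and 3 WT liver libraries; each symbol is a library and each bar the group mean. The groups do not overlap in Trem2, Gpnmb, Cd9, Cd63, Cd68 and Lgals3, and WT replicate 2 is the lowest WT library in 9 of the 10 panels.

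Among the surface receptors, Trem2 lies on chromosome 17 from 48346401 to 48354147 (mm10, + strand). Its reads numbered 562, 873 and 693 in the KO libraries, in the order of replicates 1 to 3, against 166, 47 and 50 in the WT libraries. On the CPM scale these were 23.8, 33.7 and 29.9 in KO livers and 8.69, 2.73 and 2.67 in WT livers. The lowest KO library was thus well above the highest WT library. The log2 fold change was 2.62 (SE 0.46, edgeR adjusted p = 0.0240). Trem2 passed without WT replicate 1 or WT replicate 2. Its call was lost when any KO library or WT replicate 3 was left out, where the adjusted p reached 0.0963 and the log2 fold change was never under 2.35. It passed in all 8 fits with another scaling, filter or tool. Among the other triggering receptors, Treml4 was the family's highest gene per kilobase of exon, at 15.5 CPM per kb in KO livers and 12.6 CPM per kb in WT livers. Treml2, Trem1 and Trem3 stayed between 0.398 and 0.738 CPM per kb in KO livers and had edgeR adjusted p-values of 0.472, 0.493 and 0.585. Of 5 tested TREM genes, Trem2 alone passed; whether the others differ from it was not tested.

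Clec7a encodes dectin-1, a C-type lectin that binds fungal beta-glucans. The gene lies on chromosome 6 from 129461591 to 129472779 (- strand) and is annotated by GENCODE as a polymorphic pseudogene. It was the most variable member among KO livers, at 147, 64.8 and 105 CPM, against 83.6, 24.9 and 57.6 CPM in WT livers. KO replicate 2 lay below WT replicate 1, and the log2 difference of 0.93 (SE 0.46) did not pass (edgeR adjusted p = 0.249). Clec7a was the highest per kilobase of exon among the 13 myeloid C-type lectin receptor genes listed, at 40.1 CPM per kb in KO livers. The list leaves out Clec4f, described below with the Kupffer cell genes, which was at 139 CPM per kb in KO livers and 75.2 in WT livers. Of the 13 listed, none rose by edgeR, DESeq2 or limma-voom, with 1 higher at an unadjusted edgeR p under 0.05. Clec2d, a ligand of NK cell receptors, was lower in that group, at 5.74 ± 1.04 CPM in KO livers against 10.1 ± 0.805 CPM in WT livers (SD, n = 3 each; edgeR adjusted p = 0.0468). That call was lost without each library in turn, and also under 3 of the other settings (upper-quartile scaling, no scaling beyond library size, and no filter on low counts).

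Itgax encodes integrin alpha X (CD11c), which pairs with the beta 2 chain and is also the classical marker of dendritic cells. It lies on chromosome 7 from 128129547 to 128150657 (+ strand). Its levels were 28.4, 29.5 and 25.1 CPM in KO livers against 33.9, 4.53 and 21.4 CPM in WT livers. The KO livers were close together and fell inside the WT range. The log2 difference of 0.47 (SE 0.58) did not pass (edgeR adjusted p = 0.650), and without WT replicate 2 it came to 0.0034. Among 11 tested integrin genes Itgb5 was called higher (edgeR adjusted p = 0.0428), and its call was lost without each library in turn. Itgam, the CD11b chain, was at 16.2 ± 6.44 CPM in KO livers and 8.08 ± 6.98 CPM in WT livers (SD, n = 3 each; edgeR adjusted p = 0.364).

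Ms4a7, a membrane-spanning 4-domain gene that is associated with monocyte-derived macrophages in brain and liver, lies on chromosome 19 from 11321039 to 11336146 (- strand). It was the lowest member, with 128, 121 and 165 counts in KO livers against 99, 26 and 43 counts in WT livers. These were 5.41, 4.67 and 7.11 CPM in KO livers and 5.18, 1.51 and 2.30 CPM in WT livers. KO replicate 2 was below WT replicate 1. The log2 difference of 0.93 (SE 0.44) did not pass with all 6 libraries (edgeR adjusted p = 0.234) and passed without WT replicate 1 (log2 1.59, adjusted p = 0.0382). Of 9 tested MS4A genes none was called by edgeR, DESeq2 or limma-voom, and none had an unadjusted edgeR p under 0.05. Ms4a6c was the highest of the family per kilobase of exon, at 10.6 CPM per kb in KO livers and 8.99 CPM per kb in WT livers.

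The tetraspanins Cd9 and Cd63 are small membrane proteins with 4 transmembrane spans, Cd9 at the cell surface and Cd63 mainly in late endosomes and lysosomes. Cd63 lies on chromosome 10 from 128900989 to 128912822 (+ strand). It was at 66.6, 87.5 and 85.9 CPM in KO livers against 25.3, 8.72 and 23.5 CPM in WT livers. Each KO library exceeded the highest WT library by more than 2 times. The log2 fold change was 2.06 (SE 0.37, edgeR adjusted p = 0.0256). As for Trem2, the call was lost when any KO library or WT replicate 3 was left out (largest adjusted p 0.101).

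Cd9 lies on chromosome 6 from 125460266 to 125494791 (- strand), and the antisense gene Gm28809 overlaps 3316 bases of it. Reads of the 2 genes could not be told apart unless strand was used in counting, which the sources used here do not give. Cd9 was at 84.9, 75.6 and 75.6 CPM in KO livers against 38.5, 31.6 and 46.3 CPM in WT livers. It was the member with the smallest spread among WT livers, where the SD was 18.9% of the mean. The log2 fold change was 1.02 (SE 0.15) and the edgeR adjusted p of 0.0143 was the smallest of the 10. The call was lost when KO replicate 1 (adjusted p = 0.0525) or KO replicate 2 (0.0676) was left out. Of 22 tested tetraspanins, Cd9, Cd63 and Tspan15 rose and none fell. At an unadjusted edgeR p under 0.05, 2 were lower, and DESeq2 and limma-voom called none lower. Tspan15, which directs the protease ADAM10, was at 18.0 ± 0.458 CPM in KO livers against 10.3 ± 1.53 CPM in WT livers (SD, n = 3 each; edgeR adjusted p = 0.0242), and passed in 2 of the 6 fits without 1 library. The highest of the family per kilobase of exon was Tspan31, at 142 CPM per kb in KO livers and 143 CPM per kb in WT livers.

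Among the lysosomal members, Gpnmb encodes a transmembrane glycoprotein that is induced in lipid-loaded and lysosomally stressed macrophages. It lies on chromosome 6 from 49036546 to 49070929 (+ strand). Its counts were 4348, 5266 and 5168 in KO livers against 1142, 54 and 307 counts in WT livers. On the CPM scale that was 184, 203 and 223 in KO livers and 59.8, 3.14 and 16.4 in WT livers. The KO livers agreed closely, with an SD of 9.57% of the mean, while in WT livers the SD was 112% of the mean. The log2 fold change of 2.94 (SE 0.87) had an unadjusted p of 0.0115 and an edgeR adjusted p of 0.0896. DESeq2 called it (adjusted p = 0.0333), and so did limma-voom (0.0453). In edgeR it also passed without WT replicate 1, at a log2 of 4.38 (adjusted p = 0.0207), and without WT replicate 2, at 2.42 (adjusted p = 0.0416). Its paralog Pmel stayed near absent, at 0.218 CPM per kb of exon in KO livers and 0.219 CPM per kb in WT livers. Of the MiT transcription factors that drive lysosomal genes and Gpnmb, Tfe3 was at 44.9 ± 10.6 CPM in KO livers and 31.7 ± 4.48 CPM in WT livers (SD, n = 3 each; edgeR adjusted p = 0.148). Mitf and Tfeb had log2 differences of 0.47 and -0.28 (edgeR adjusted p = 0.246 and 0.248). Tfeb was thus the lower in KO livers, at 10.8 ± 0.133 CPM against 13.2 ± 1.33 CPM in WT livers (SD, n = 3 each).

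Cd68 encodes macrosialin, a heavily glycosylated lysosomal protein used as a stain for macrophages, and lies on chromosome 11 from 69664213 to 69666153 (- strand). It was at 101, 85.8 and 93.1 CPM in KO livers against 73.5, 29.1 and 47.2 CPM in WT livers. The groups did not overlap, but WT replicate 1 came close to the lowest KO library. The log2 difference of 0.90 (SE 0.30) did not pass in edgeR (adjusted p = 0.121) and passed in DESeq2 (adjusted p = 0.0403) and, in edgeR, without WT replicate 1 (log2 1.29, adjusted p = 0.0252). The related Lamp1, a structural protein of every lysosome, was the highest of the family, at 395 CPM per kb of exon in KO livers and 375 CPM per kb in WT livers. Lamp2 was at 411 ± 68.0 CPM in KO livers and 574 ± 68.7 CPM in WT livers (SD, n = 3 each; edgeR adjusted p = 0.146).

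Lgals3 encodes galectin-3, a secreted beta-galactoside-binding lectin that is recruited to damaged lysosomes. It lies on chromosome 14 from 47367751 to 47386160 (+ strand) and was at 161, 155 and 140 CPM in KO livers against 131, 20.3 and 80.0 CPM in WT livers. WT replicate 1 reached nearly the KO level and WT replicate 2 lay far under it. The log2 difference of 0.98 (SE 0.56) did not pass in any of the fits made (edgeR adjusted p = 0.319). The 5 tested genes of the galectin list included Lgals3bp, which encodes a galectin-3 binding protein and not a galectin. None of the 5 passed by edgeR, DESeq2 or limma-voom, nor at an unadjusted edgeR p under 0.05. Lgals1 was at 48.5 ± 5.12 CPM in KO livers and 28.7 ± 20.2 CPM in WT livers (SD, n = 3 each), and Lgals9, the highest of the family per kilobase of exon, at 497 ± 39.3 CPM in KO livers and 628 ± 86.4 CPM in WT livers.

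Fabp5 encodes the epidermal-type fatty acid binding protein, which carries fatty acids in the cytosol of macrophages and many other cells. It lies on chromosome 3 from 10012548 to 10016607 (+ strand). Levels were 29.5, 31.6 and 28.05 CPM in KO livers against 29.7, 16.9 and 20.2 CPM in WT livers. WT replicate 1 was inside the KO range. The log2 difference of 0.41 (SE 0.21) was the smallest of the 10 and did not pass (edgeR adjusted p = 0.25). Within its family the hepatocyte gene Fabp1 fell to 805 ± 59.0 CPM in KO livers, against 1924 ± 739 CPM in WT livers (SD, n = 3 each; edgeR adjusted p = 0.0464), and passed in 1 of the 6 fits without 1 library. Fabp7 was at 26.9 ± 9.15 CPM in KO livers and 9.57 ± 4.13 CPM in WT livers (SD, n = 3 each; edgeR adjusted p = 0.0594). Fabp4, the adipocyte and macrophage form, had an edgeR adjusted p of 0.346.

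**Figure D2:**
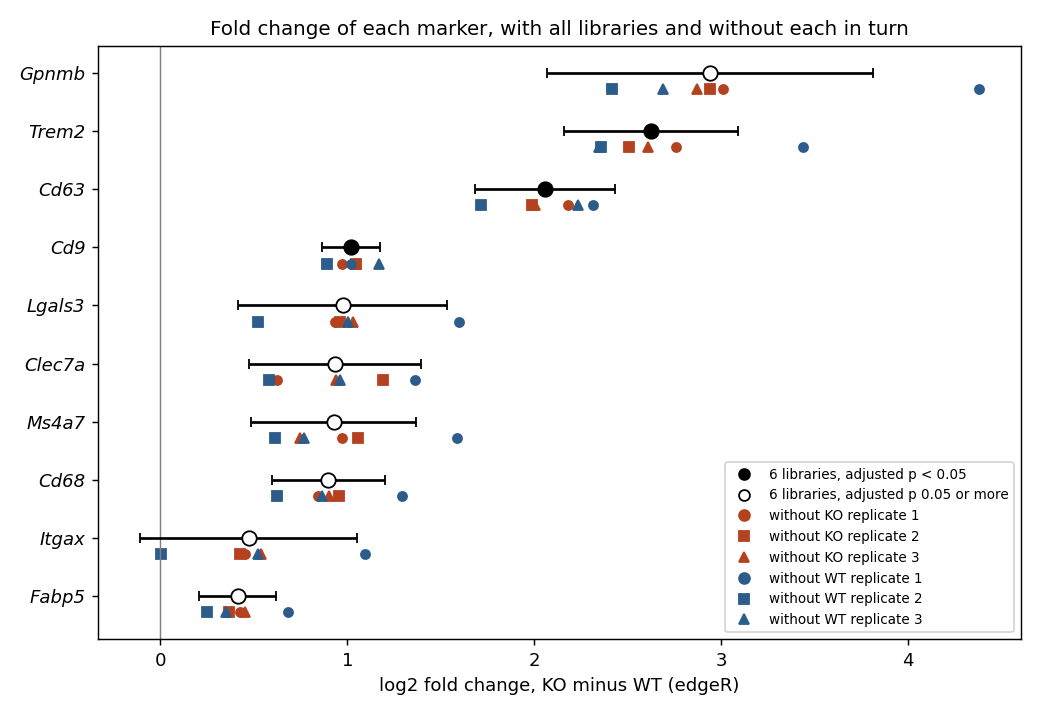
Log2 fold change (KO minus WT) of each marker from the edgeR fit on 6 libraries (large circle, filled where the adjusted p is under 0.05, bars ± 1 SE), with the fits that leave out 1 library as small symbols below it. Every fold change is positive; leaving out WT replicate 1 moves Gpnmb to 4.38, and leaving out WT replicate 2 moves Itgax to 0.0034.

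Per kilobase of exon, the order of the members' levels in KO livers ran from Lgals3 (81.7 ± 5.66 CPM per kb, SD, n = 3) and Cd68 (74.1 ± 5.94) through Clec7a (40.1 ± 15.6), Cd9 (38.5 ± 2.62), Gpnmb (31.2 ± 2.99) and Cd63 (21.7 ± 3.16) to Fabp5 (8.33 ± 0.502), Trem2 (5.88 ± 1.01), Itgax (5.77 ± 0.478) and Ms4a7 (1.29 ± 0.281). The ranges of Lgals3 and Cd68, of Clec7a and Cd9 and of Trem2 and Itgax overlapped, so those neighbours did not differ beyond their spread, and Cd9, Gpnmb and Cd63 did not overlap one another. In WT livers Lgals3 (41.5 ± 29.9) and Cd68 (39.7 ± 17.8) were also first and Ms4a7 (0.673 ± 0.434) last. Gpnmb stood at 4.06 ± 4.55 CPM per kb in WT livers, below Fabp5 (6.25 ± 1.86), Cd63 (5.21 ± 2.47) and Itgax (4.15 ± 3.07), and Trem2 at 0.950 ± 0.699 CPM per kb was next to last. The WT ranges of Gpnmb, Fabp5, Cd63 and Itgax overlapped one another.

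The WT livers differed from each other in an order that the members shared. WT replicate 1 was the highest WT library in 9 of 10 members and WT replicate 2 the lowest in 9. The full order of WT replicate 1 above 3 above 2 held in 8 members and in 22.5% of all tested genes. Summed over the 10 members the level was 831, 771 and 813 CPM in KO livers against 489, 144 and 318 CPM in WT livers. The 22 general macrophage genes, among them Csf1r, Adgre1, Cd14, Lyz2 and the C1q chains, followed this order in 20 of 22 cases. They summed to 3743, 3386 and 3648 CPM in KO livers against 4211, 1364 and 2515 CPM in WT livers. The sum of WT replicate 1 was thus above every KO library.

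None of the 22 general macrophage genes passed, and 21 had a positive log2 fold change (median 0.50). DESeq2 called 1 higher, limma-voom none, and 3 were higher and none lower at an unadjusted edgeR p under 0.05. Without WT replicate 1, 7 of them were called higher. Csf1r, the receptor for the macrophage growth factor CSF1, was at 266 ± 29.9 CPM in KO livers and 189 ± 73.7 CPM in WT livers (SD, n = 3 each; edgeR adjusted p = 0.289). Adgre1, which encodes F4/80, was at 101 ± 12.3 CPM in KO livers and 89.5 ± 35.5 CPM in WT livers (SD, n = 3 each; edgeR adjusted p = 0.717). The genes of the list with the smallest p were the efferocytosis receptor Mertk, Cd14, Cx3cr1 and C1qb, at adjusted p-values of 0.102, 0.107, 0.181 and 0.230.

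Members were then set against the general macrophage genes of their own library, as a percentage of the summed CPM of those 22 genes. That sum is an RNA level and not a measure of macrophage number. Trem2 came to 0.635%, 0.995% and 0.819% in KO livers against 0.206%, 0.200% and 0.106% in WT livers. Gpnmb came to 4.91%, 6.00% and 6.10% in KO livers against 1.42%, 0.230% and 0.652% in WT livers, and Cd63 to 1.78%, 2.58% and 2.36% against 0.601%, 0.639% and 0.934% in KO and WT livers. On this scale the 3 genes were 4.90-, 9.45- and 3.11-fold higher in KO livers, as ratios of geometric means. For Gpnmb this was 5.87-fold without WT replicate 2 and 14.6-fold without WT replicate 1. Cd68, at 2.59 ± 0.0861% in KO livers against 1.92 ± 0.198% in WT livers, and Lgals3, at 4.23 ± 0.366% against 2.60 ± 0.957% in KO and WT livers, also did not overlap (SD, n = 3 each), and nor did Ms4a7, at 0.159 ± 0.0312% in KO livers against 0.108 ± 0.0160% in WT livers. On the same scale 3.63% of all tested genes lay above WT in every KO library, against 16.9% on the CPM scale. The denominator was lowest in WT replicate 2, which raises the ratio there for genes that do not follow it. The 3.63% is therefore not a like background for members that do follow it. Each of the 6 members without overlap had a two-sided exact permutation p of 0.10, the smallest that 3 samples against 3 can give. Full separation always gives that value, so the p adds nothing to the lack of overlap.

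Cd9 did not separate on that scale, at 2.27%, 2.23% and 2.07% in KO livers against 0.915%, 2.32% and 1.84% in WT livers (two-sided exact permutation p = 0.40). Itgax (0.773 ± 0.0923% in KO livers and 0.662 ± 0.287% in WT livers), Fabp5 (0.830 ± 0.0901% and 0.917 ± 0.284%) and Clec7a (2.91 ± 1.01% and 2.03 ± 0.236%) overlapped as well. With Csf1r alone as the denominator 5 members lay above WT in every KO library (3.43% of all tested genes), and with Adgre1 alone 8 did (6.98% of all tested genes). Trem2, Gpnmb, Cd63, Cd68 and Ms4a7 were among these members in each case. The shares of all tested genes carry the limit given above, as Csf1r and Adgre1 were also lowest in WT replicate 2.

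**Figure D3:**
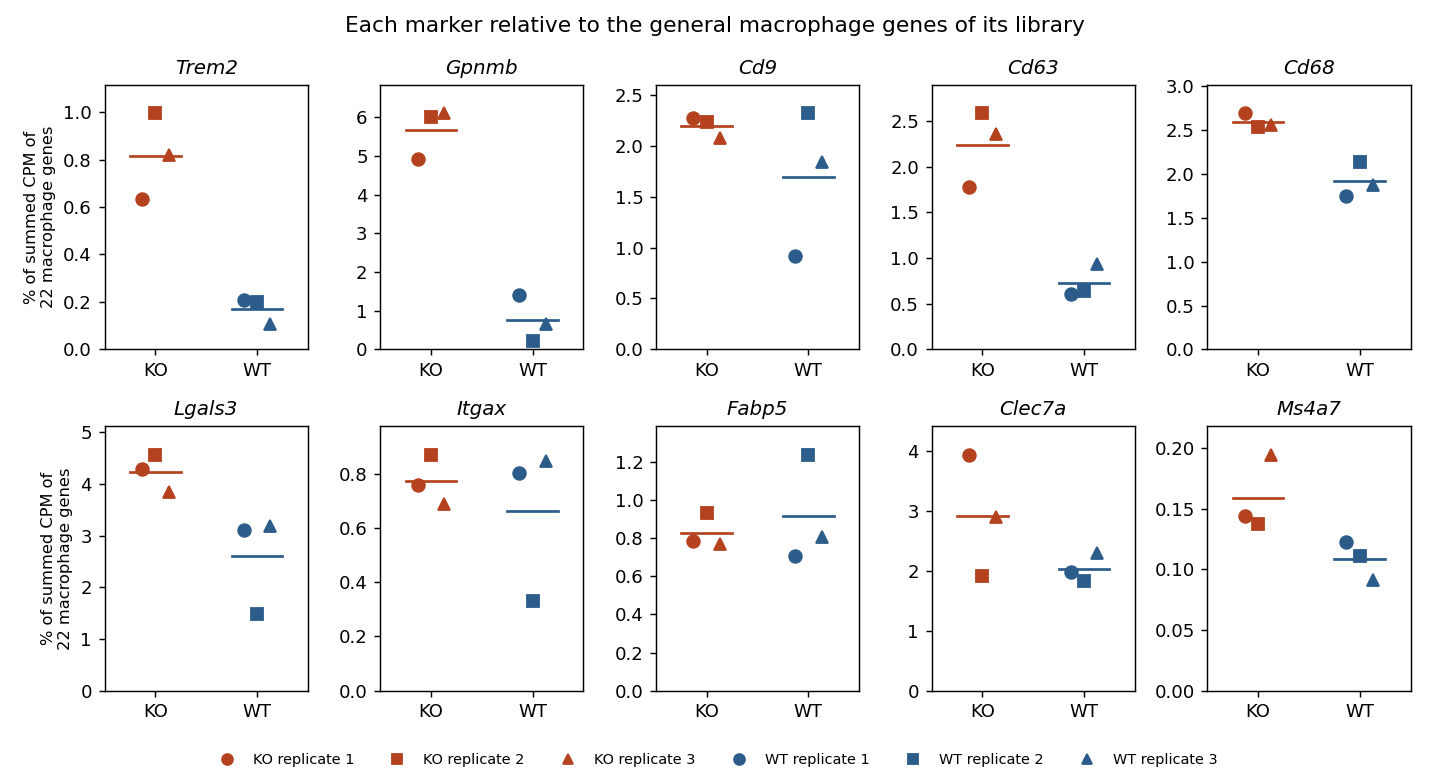
Each marker as a percentage of the summed CPM of 22 general macrophage genes in the same library (linear axes from 0); symbols are the 3 KO and 3 WT libraries and bars the group means. Trem2, Gpnmb and Cd63 are 4.90-, 9.45- and 3.11-fold higher in KO livers as ratios of geometric means, while Cd9, Itgax, Fabp5 and Clec7a overlap between the genotypes.

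Of the genes that act with TREM2, none of 11 tested passed by edgeR, DESeq2 or limma-voom, and none had an unadjusted edgeR p under 0.05; without WT replicate 1, 1 was called higher. The adaptor Tyrobp was at 120, 101 and 105 CPM in KO livers against 104, 28.1 and 57.5 CPM in WT livers (edgeR adjusted p = 0.285) and followed the WT order of the members. Syk, at 32.8 ± 2.72 CPM in KO livers and 21.2 ± 9.64 CPM in WT livers, and the phosphatase gene Inpp5d, at 24.1 ± 1.96 and 15.4 ± 7.04 CPM in KO and WT livers (SD, n = 3 each), had adjusted p-values of 0.267 and 0.246. Adam10, the sheddase that releases the TREM2 ectodomain, had an adjusted p of 0.196. Apoe, a TREM2 ligand that hepatocytes make in bulk, was at 19928 ± 4575 CPM in KO livers and 27016 ± 4684 CPM in WT livers (SD, n = 3 each; edgeR adjusted p = 0.377).

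Among 30 further lipid-handling and lysosomal genes of lipid-loaded macrophages, 4 rose and none fell, with a median log2 fold change of 0.66 and 27 positive values. DESeq2 called 14 higher and limma-voom 5, neither called any lower, and 15 were higher and none lower at an unadjusted edgeR p under 0.05. The 4 were Mmp12, the macrophage elastase, at 122 ± 20.5 CPM in KO livers against 21.97 ± 9.95 CPM in WT livers; the lipoprotein lipase gene Lpl, at 391 ± 47.8 against 97.8 ± 37.2 CPM; the lipid droplet coat gene Plin2, at 658 ± 54.4 against 267 ± 58.3 CPM; and Emp1, at 38.9 ± 14.6 against 5.90 ± 4.30 CPM in KO and WT livers (SD, n = 3 each). Their edgeR adjusted p-values were 0.0109, 0.0143, 0.0147 and 0.0432. Mmp12 and Plin2 each passed in 5 of 6 fits without 1 library, Lpl in 3 and Emp1 in 2. Between 0 and 8 of the 30 passed in those fits. In whole liver these levels cannot be assigned to macrophages, and which cells the differences came from was not tested. Spp1, osteopontin, often listed with these markers and also made by bile duct cells, was at 83.4, 83.5 and 103 CPM in KO livers against 84.2, 46.0 and 90.8 CPM in WT livers (edgeR adjusted p = 0.513).

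Of 16 resident Kupffer cell genes, 2 rose and none fell. Clec4f was at 408, 273 and 347 CPM in KO livers against 201, 196 and 161 CPM in WT livers (edgeR adjusted p = 0.0352), and the complement receptor gene Vsig4 was at 106 ± 19.2 CPM in KO livers against 60.1 ± 10.8 CPM in WT livers (SD, n = 3 each; edgeR adjusted p = 0.0463). Clec4f passed in 2 of the 6 fits without 1 library and Vsig4 in 1. Timd4, a receptor for dying cells on long-lived Kupffer cells, was at 16.5, 21.0 and 28.3 CPM in KO livers against 52.3, 14.8 and 27.2 CPM in WT livers (edgeR adjusted p = 0.494). DESeq2 called 5 Kupffer cell genes higher and 2 lower, and limma-voom called 3 higher and none lower. The 2 lower were C6 and Cd163, with edgeR log2 fold changes of -0.80 and -1.36 (edgeR adjusted p = 0.108 and 0.143). At an unadjusted edgeR p under 0.05, 5 Kupffer cell genes were higher and 2 lower. Log2 fold changes were positive in 10 of the 16, with a median of 0.45.

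None of 15 recruited monocyte genes and none of 17 dendritic cell genes passed in edgeR, with medians of -0.04 for both lists. At an unadjusted edgeR p under 0.05, 1 monocyte gene was higher and none lower, and 1 dendritic cell gene was higher and 1 lower. DESeq2 called 0 monocyte genes and 1 dendritic cell gene in each direction, and limma-voom none of either list. Without WT replicate 2, edgeR called 2 monocyte and 3 dendritic cell genes lower. The dendritic cell genes, which include MHC class II and mark cells that also carry Itgax, summed to 1158, 1115 and 1101 CPM in KO livers against 3662, 431 and 1724 CPM in WT livers. They thus followed the WT order of the members, but with the KO livers between WT replicates 2 and 3. Log2 fold changes were positive in 7 of the 15 monocyte genes and 7 of the 17 dendritic cell genes. The dendritic cell gene with the smallest p, Cd209a, was at 1.14 ± 0.252 CPM in KO livers and 0.295 ± 0.180 CPM in WT livers (edgeR adjusted p = 0.0714). Clec9a, of cross-presenting dendritic cells, was at 1.45 ± 0.310 CPM in KO livers and 6.32 ± 4.59 CPM in WT livers (SD, n = 3 each; edgeR adjusted p = 0.0900). The monocyte genes with the smallest p were Cx3cr1 and Vcan, both with positive log2 fold changes (1.37 and 1.77, edgeR adjusted p = 0.181 and 0.212). Vcan was at 2.51 ± 1.54 CPM in KO livers and 0.724 ± 0.578 CPM in WT livers (SD, n = 3 each). Ly6c2, of inflammatory monocytes, was at 4.14, 1.93 and 2.84 CPM in KO livers against 16.4, 1.34 and 7.91 CPM in WT livers (edgeR adjusted p = 0.256).

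Several members, Cd9, Cd63, Lgals3 and Fabp5 among them, are also made by bile duct, stellate or endothelial cells. Of 10 tested bile duct genes 2 rose, Tm4sf4 (365 ± 13.1 CPM in KO livers against 149 ± 8.06 CPM in WT livers; edgeR adjusted p = 0.00421) and Cdh1 (117 ± 18.9 against 66.3 ± 8.62 CPM in KO and WT livers; adjusted p = 0.0281; SD, n = 3 each), and the 12 listed genes summed to between 579 and 634 CPM in KO livers and between 290 and 342 CPM in WT livers. Of 14 stellate cell and myofibroblast genes 4 rose, the collagens Col1a1, Col1a2 and Col3a1 by 6.98-, 4.92- and 4.88-fold and the proteoglycan Dcn by 1.66-fold. Cdh1 and each of the 3 collagens passed in 2 of the 6 fits without 1 library, Dcn in 1 and Tm4sf4 in all 6, and the collagens also missed the threshold with no low-count filter. All 14 had a positive log2 fold change (median 1.05), 11 were higher and none lower at an unadjusted edgeR p under 0.05, and DESeq2 called 9 higher and limma-voom 4. That list summed to between 1002 and 1312 CPM in KO livers and between 344 and 559 CPM in WT livers. Of 13 sinusoidal endothelial genes none passed by edgeR, DESeq2 or limma-voom, with 1 higher and 2 lower at an unadjusted edgeR p under 0.05. Their median log2 fold change was -0.43, and 2 of the 13 were positive. Neutrophil genes summed to between 14.6 and 23.2 CPM in KO livers and between 9.65 and 37.5 CPM in WT livers, and lymphocyte genes to between 20.7 and 41.1 CPM in KO livers and between 18.3 and 49.8 CPM in WT livers. The part of these cells in the members' differences was not tested.

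**Figure D4:**
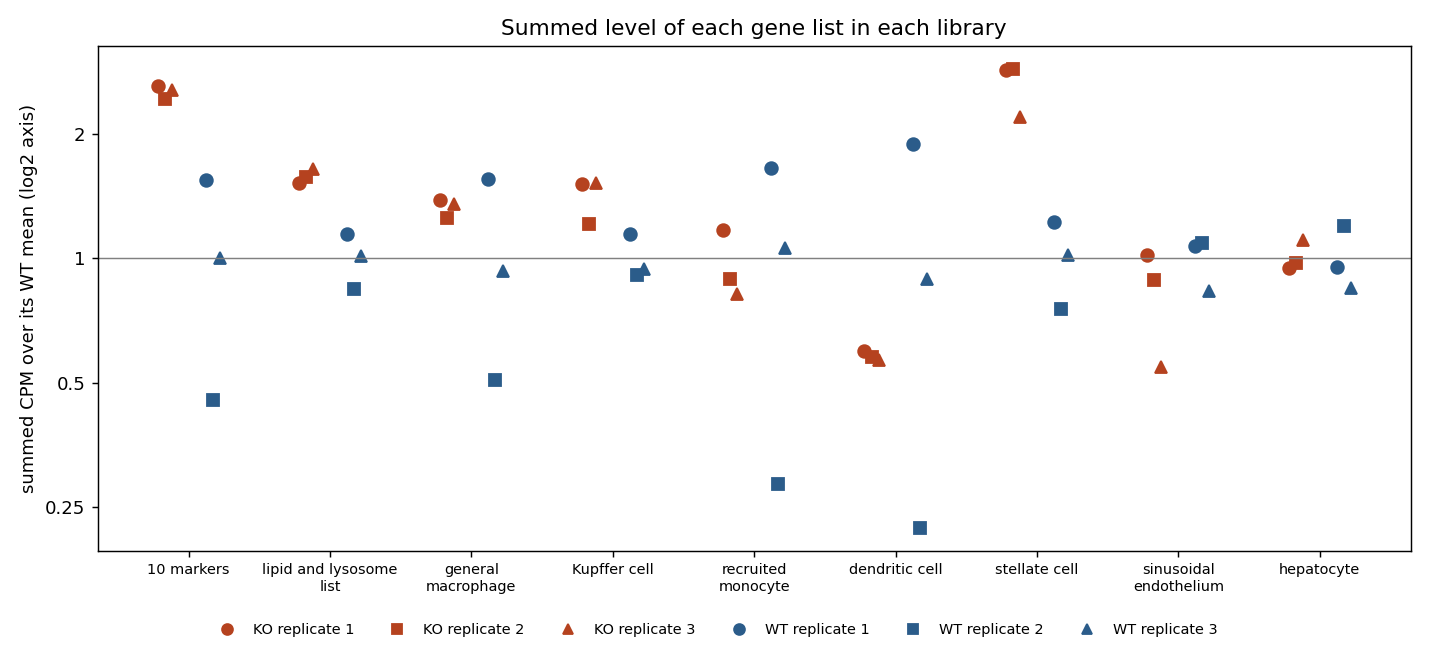
Summed CPM of the 10 markers and of 8 other gene lists in each library, divided by the mean of the 3 WT libraries (log2 axis; KO symbols left, WT symbols right in each column). The 10 markers stand between 2.43 and 2.62 in KO livers, the general macrophage genes between 1.26 and 1.39, and the dendritic cell genes between 0.568 and 0.597, while WT replicate 2 falls to 0.453, 0.506 and 0.222 in these lists. The stellate cell genes stand between 2.20 and 2.88 in KO livers. The lipid and lysosome list stands between 1.52 and 1.64 there, and the Kupffer cell genes between 1.21 and 1.52. The monocyte, endothelial and hepatocyte lists lie between 0.544 and 1.17 in KO livers.

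Across the 6 libraries the members' log2 CPM correlated with each other in all 45 pairs, with Pearson r between 0.626 (Cd9 and Itgax) and 0.988 (Gpnmb and Cd68) and a median of 0.882. These points share libraries and the genotype difference, and the values are given as a description. After each genotype's mean was taken off, the median r was 0.812. Lgals3 and Itgax then stood at 0.999, and Trem2 and Cd9 at -0.0769.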

How the data were processed

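RNA of 3 Sesn3 KO and 3 WT mouse liver samples was measured; groups follow the labelled genotype, and replicate numbers follow accession order and so serve as names, with no pairing. The authors deposited whole-number read counts per gene symbol, 1 column per library, without normalization; per the labels, RNA was Trizol-extracted and prepared with a TruSeq kit of Illumina. Per the submitters' processing notes, the genome build was mm10 and the tools were edgeR 3.20.8, Subread 1.5.3, featureCounts and STAR 2.5, with no roles given; the sources used here do not give the annotation, strand setting or treatment of multi-mapping reads, so genes with near-identical copies or antisense partners are uncertain. The labels call the samples separate and do not name separate animals, so the spread that p-values are measured against is that of these samples and may be technical.

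All genes were tested in R 4.3.3 with edgeR 4.0.16 (filterByExpr at a minimum count of 10 and a total of 15; TMM; robust glmQLFit; quasi-likelihood F-test), with Benjamini-Hochberg adjustment over 12945 genes and a threshold of 0.05. Log2 fold changes are KO minus WT, with an approximate SE (log2 fold change divided by the square root of F). The fit's common biological coefficient of variation was 0.232. Alternatives were DESeq2 1.42.0, voom of limma 3.58.1, other scalings (RLE, upper quartile, library size alone), other low-count filters (none, or 1 CPM in 3 libraries), dispersion without the robust option, and each library left out in turn. The code was first tested on simulated data with 50 changed genes at each fold size. There edgeR recovered 46% of 2-fold and 96% of 4-fold changes. Of the calls at the threshold of 0.05, 13.8% were false with edgeR, 23.8% with DESeq2 and 10% with limma-voom. Positions and exon lengths (the union over transcripts) come from GENCODE mouse release M21, in which 23334 of 24421 symbols (95.5%) matched 1 gene. Likeness used log2 CPM with a prior count of 2.

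The members, the other gene lists and the tests were chosen with earlier results of these data known. Named besides the members are up to 4 genes of a list with the smallest p, a few fixed genes (Csf1r, Adgre1, Clec4f, Timd4, Vsig4, Spp1, Lpl, Tyrobp, Apoe, Sesn3), the 5 genes most like the members and the highest paralogs per length. Pmel, C6, Cd163, Cd74 and the motif letters were chosen after the data were seen.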

Additional observations from a re-analysis of the deposited data

How the results depend on the processing

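No paired analysis was possible because the labels give no replicate numbers that the genotypes share. The count of members called higher in KO livers, 3 with all libraries, was 5 with DESeq2 and between 0 and 7 without 1 library, and was 3 or 4 in the other fits; no member was called lower in any fit. Among all tested genes, 435 were higher and 463 lower; library size only gave 707 and 258, where the median gene moved by 0.21 (log2) and the members' median was 1.14, DESeq2 gave 921 and 1061, and leaving out 1 library gave between 48 and 504 higher and between 53 and 475 lower. Sesn3 passed in every fit. The members' log2 fold changes kept their sign in every fit. Signs that turned were those of Adgre1 without WT replicate 2 (-0.040 to 0.54 over the fits without 1 library), and of Timd4 (-0.86 to 0.067) and Cd74 (-1.37 to 0.070) without WT replicate 1, none of them called. Relative to the general macrophage genes, Itgax turned to -0.10 without WT replicate 2 (0.34 with all, up to 0.57), and Fabp5 to 0.13 without WT replicate 2 and 0.21 with Adgre1 as denominator (-0.11 with all, down to -0.27); leaving out libraries from these shares was added after the data were seen. The causes were not tested. The lowest member, Ms4a7, had 26 counts in its lowest library, so counting error adds to its spread.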

Other observations

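The 5 tested genes outside the list whose log2 CPM over the 6 libraries was most like the mean standardised profile of the 10 members were Arhgap25, Fkbp7, Renbp, Ano6 and Cerk, with Pearson r of 0.997, 0.996, 0.995, 0.995 and 0.994. Arhgap25, a Rac regulator of leukocytes, was at 20.6, 19.7 and 17.8 CPM in KO livers against 12.5, 3.55 and 7.85 CPM in WT livers, and Cerk, the ceramide kinase gene, at 27.3, 24.5 and 22.7 CPM in KO livers against 19.1, 6.22 and 12.02 CPM in WT livers. In all 5 the KO livers lay above the WT livers, and in none of them did the difference pass (edgeR adjusted p between 0.0949 and 0.162). Of the members, Cd68 (0.996) and Gpnmb (0.995) were closest to the mean profile that they are part of, and Cd9 (0.873) and Itgax (0.882) farthest from it.

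After each genotype's mean was taken off, the genes closest to the members' profile were the antigen presentation genes Cd74 (r = 0.9999) and Ifi30 (0.9997), followed by the leukocyte signalling genes Arhgap15, Vav1 and Dock2. Cd74, the invariant chain of MHC class II, was at 516, 465 and 488 CPM in KO livers against 1781, 188 and 747 CPM in WT livers. It differed over 9-fold among WT livers in the same order as Gpnmb, while its KO livers lay within the WT range, unlike those of Gpnmb (edgeR adjusted p = 0.449 for Cd74). These correlations are over 6 libraries, of which the 3 WT livers carry most of the spread, and are given as values only.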
